A study of Mus musculus with 71 samples.

Results

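Notch receptors and Notch target genes were followed through 31 RNA-seq samples of Pax5 mutant B cell progenitors and through 17 RNA-seq samples of early T cell development in the mouse. The members are the receptor genes Notch1, Notch2 and Notch3 and the target genes Hes1, Heyl, Dtx1 and Nrarp, chosen by gene symbol. They are 7 of 25579 genes in the files of the Pax5 samples and 7 of 24420 genes in those of the lymphoid samples. All 7 passed the filter on low values (above 1 TPM, the share of transcripts after scaling each sample to the same total, in at least 1 sample) in each of the 3 data sets, so that no member is missing from a count below.

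All mice were C57BL/6, and their ages are not in the labels. The first data set, of 25 bone marrow samples, holds pro-B cells of 5 Pax5(+/+) samples and of 2 samples for each mutant. The mutants lack the octapeptide, Pax5(DOP/DOP), the partial homeodomain, Pax5(DHD/DHD), or both, Pax5(DOP,HD/DOP,HD). Others lack C-terminal regulatory domain 1 or 2 or both, as homozygotes (Pax5(DCRD1/DCRD1), Pax5(DCRD2/DCRD2) and Pax5(DCRD1,2/DCRD1,2)) or over a null allele (Pax5(DCRD1/-), Pax5(DCRD2/-) and Pax5(DCRD1,2/-)). The set also holds 2 samples of progenitors without Pax5, Vav-Cre Pax5(fl/fl), in which Cre recombinase acts throughout the blood system. The second data set, called the Prd experiment here, has 2 samples each of Vav-Cre Pax5(fl/+) pro-B cells, of Vav-Cre Pax5(Prd/fl) progenitors, which can make only the DNA-binding paired domain (Prd), and of Vav-Cre Pax5(fl/fl) progenitors. The third holds wild-type LMPP (lymphoid-primed multipotent progenitors) of the bone marrow and the thymic stages DN1, DN2a, DN2b, DN3a and DN3b, in 2 or 3 samples each, with 2 samples of Rag2(-/-) DN3a cells. In the first data set, Pax5(DCRD1,2/-) cells and Pax5-deficient progenitors were sorted by another gate than most pro-B cells, as Lin- B220+ Ly6D+ cells with high Kit. The labels give both progenitors of the Prd experiment, with Prd/fl and with fl/fl, an alternative gating that the fl/+ pro-B cells do not have, so that gate and genotype cannot be told apart in these comparisons. Nothing in the labels says that 2 samples of a group came from separate animals, and the p-values then measure the spread between these samples only.

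Notch receptors are cut upon binding a ligand on a neighbouring cell, and the freed intracellular part enters the nucleus, joins the DNA-binding protein Rbpj and Mastermind proteins and switches on target genes. In the thymus, signals through Notch1 drive lymphoid progenitors into the T cell lineage, with Notch3 and Dtx1 among the genes that respond, while B cell development in the bone marrow proceeds without that signal. Hes1 and Heyl encode transcriptional repressors of the hairy and enhancer-of-split family, Dtx1 a Deltex ubiquitin ligase that acts on the receptors, and Nrarp an ankyrin-repeat protein that damps the pathway.

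In the GENCODE M21 annotation of GRCm38, Notch1 lies on chromosome 2 from 26457903 to 26516663 on the minus strand and Notch2 on chromosome 3 from 98013527 to 98150361 on the plus strand. Notch3 spans chromosome 17 from 32120820 to 32166852 on the minus strand. The target genes are shorter, with Hes1 on chromosome 16 (30064384 to 30067796, plus strand), Heyl on chromosome 4 (123233556 to 123249875, plus), Dtx1 on chromosome 5 (120680202 to 120711927, minus) and Nrarp on chromosome 2 (25180758 to 25183339, plus). Antisense genes overlap Notch3 (Gm17276) and Nrarp (Gm38287), non-coding genes overlap Notch1 and Notch2, and the strand setting of the counting is not given in the sources used here, so reads of overlapping genes cannot be told apart. The receptors Notch1 and Notch2 rose together in Pax5-deficient progenitors in every fit run. Notch3 was called higher there as well, but not in every fit. The 250 bases before the RefSeq start sites of Notch1 and Notch2 are shown for that reason. They are the RefSeq sequences of GRCm38.p6, at chr2:26503823-26504072 on the minus strand for Notch1 and at chr3:98013288-98013537 on the plus strand for Notch2, with CpG dinucleotides in capitals. RefSeq and GENCODE place the start of Notch1 differently, and the Notch1 stretch lies within the GENCODE span given above, while the Notch2 stretch runs a few bases past the GENCODE start.

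Notch1: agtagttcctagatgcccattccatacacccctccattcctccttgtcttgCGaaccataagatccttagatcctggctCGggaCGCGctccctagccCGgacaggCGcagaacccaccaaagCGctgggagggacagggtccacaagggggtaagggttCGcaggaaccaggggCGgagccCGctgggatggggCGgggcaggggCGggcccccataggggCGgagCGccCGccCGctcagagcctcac
Notch2: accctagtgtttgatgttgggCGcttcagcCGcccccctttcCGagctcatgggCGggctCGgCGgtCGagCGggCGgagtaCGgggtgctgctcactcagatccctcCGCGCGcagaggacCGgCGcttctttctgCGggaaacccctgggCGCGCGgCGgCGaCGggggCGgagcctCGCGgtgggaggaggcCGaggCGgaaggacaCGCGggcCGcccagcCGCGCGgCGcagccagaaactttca

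The Notch1 stretch holds 16 CpG at 66% G and C, and the Notch2 stretch holds 34 CpG at 72%. Among all 32851 promoters in the same table the median is 6 CpG and 52.4% G and C. Promoters of 5 of the 7 members were in the table, and none of the 5 holds the letters TGGGAA, the core of the Rbpj recognition sequence, on either strand over 300 bases, whereas 25.6% of all promoters do. That these letters are not in the window says nothing about binding elsewhere in these genes.

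The Pax5 samples held between 10018678 and 43784791 reads assigned to genes, with the lowest depth in a Vav-Cre Pax5(fl/fl) sample. Pax5 itself was at 1653 TPM in Vav-Cre Pax5(fl/fl) progenitors against 442 TPM in Pax5(+/+) pro-B cells on average, and since a gene-level value includes exons outside the deletion it does not check the genotype. In the thymic samples the T cell gene Cd3e was between 2181 and 2219 TPM in DN3a cells, against 0.560 to 0.660 TPM in LMPP. Of the pro-B data set, 3 Pax5(+/+), both Pax5(DCRD1/DCRD1) and both Vav-Cre Pax5(fl/fl) samples were sequenced with shorter reads and all others with longer ones. The read length is therefore a term of the model, and the Pax5(+/+) samples of the same length are given where this matters. Each mutant has 1 read length. Its difference from Pax5(+/+) in this fit therefore rests on the Pax5(+/+) samples of that length, 3 with shorter or 2 with longer reads. All 5 enter the estimate of the spread. Mutants of unlike read length are compared through these Pax5(+/+) samples.

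Notch1 and Notch2 were higher in progenitors without Pax5 than in pro-B cells, and partial deletions of Pax5 raised them little or not detectably. In the 5 Pax5(+/+) samples Notch1 was at 67.9, 88.7, 76.7, 58.6 and 104 TPM, and in Vav-Cre Pax5(fl/fl) progenitors at 387 and 320 TPM. The groups did not overlap, as was the case for 41.4% of all 14000 genes tested. The difference was 2.04 on the log2(TPM + 0.1) scale (standard error 0.18), or 4.11-fold (95% confidence interval 3.17 to 5.32, adjusted p = 7.29e-08 by limma, corrected over all genes tested after Benjamini and Hochberg). Notch2 was at 12.7, 12.2, 11.6, 11.6 and 17.1 TPM in Pax5(+/+) pro-B cells and at 47.8 and 42.5 TPM in the progenitors, again without overlap, and its difference was 1.70 (standard error 0.18, 3.24-fold, adjusted p = 6.49e-07). Both calls held under every alternative run. In bulk samples a larger share of cells that express a gene and more RNA of it per cell cannot be told apart.

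Loss of both C-terminal domains over a null allele gave the next highest levels of these receptors. Notch1 was at 100.05 and 142 TPM in Pax5(DCRD1,2/-) cells, of which the lower falls within the range of all 5 Pax5(+/+) samples but above both with reads of the same length (76.7 and 58.6 TPM), and Notch2 at 18.2 and 24.3 TPM, above all Pax5(+/+) values. Against Pax5(+/+) cells the differences were 0.83 for Notch1 (standard error 0.19, 1.78-fold, adjusted p = 0.00399) and 0.85 for Notch2 (standard error 0.19, 1.81-fold, adjusted p = 0.00309). Neither passed when only the 2 Pax5(+/+) samples with reads of the same length entered the fit (adjusted p = 0.0638 and 0.0510). The size of the difference is the same by construction, and this fit changes only the estimated spread and the genes tested. The Notch1 call was lost as well without Pax5(+/+) replicate 4 or without Pax5(DCRD1,2/-) replicate 2 (adjusted p from 0.0608 to 0.0690 over the 3 fits). In the homozygotes Pax5(DCRD1,2/DCRD1,2), Notch1 was at 85.9 and 97.5 TPM and Notch2 at 15.1 and 15.8 TPM. These values lie inside the range of all 5 Pax5(+/+) samples and above both Pax5(+/+) samples of the same read length, which had 76.7 and 58.6 TPM of Notch1 and 11.6 TPM of Notch2 each. The differences of 0.45 and 0.42 did not pass (adjusted p = 0.0999 and 0.125). Compared through the Pax5(+/+) samples of their own read lengths, Vav-Cre Pax5(fl/fl) progenitors exceeded these homozygotes 3.01-fold in Notch1 (adjusted p = 0.000788) and 2.43-fold in Notch2 (adjusted p = 0.00437). They exceeded Pax5(DCRD1,2/-) cells 2.31-fold in Notch1 (adjusted p = 0.0110), a call that was lost under 4 alternatives (adjusted p from 0.0597 to 0.158), among them without Vav-Cre Pax5(fl/fl) replicate 1, Pax5(+/+) replicate 3 or Pax5(DCRD1,2/-) replicate 1. The comparisons between mutants share these progenitors, and several fold changes below share the Pax5(+/+) samples, so they are not independent of each other. Markers of other cells moved with the Pax5(DCRD1,2/-) samples too. T cell markers rose in 2 of the 7 tested of 9, with a summed level of 365 to 385 TPM against 152 to 183 TPM in Pax5(+/+) cells, most of it from Lck at 234 to 245 TPM and none from Cd3e, which was at 0 in both samples. B cell markers fell in 5 of 8, with a sum of 12739 to 12804 TPM against 14541 to 18580 TPM. Of the 4 erythroid markers tested 3 fell and 1 rose, with a sum of 895 to 1013 TPM against 275 to 625 TPM, and 1 of 5 plasmacytoid dendritic cell markers rose. The part of this in the levels of Notch1, Notch2 and Hes1 was not tested.

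In the remaining mutants, Notch1 ranged from 71.2 to 118 TPM and Notch2 from 12.4 to 17.7 TPM, and no difference from Pax5(+/+) cells passed the test in the fit of all samples. For Notch1 the 95% confidence intervals of the log2 difference were 0.25 to 1.07 in Pax5(DHD/DHD), 0.13 to 0.95 in Pax5(DCRD1/-) and 0.12 to 0.94 in Pax5(DOP,HD/DOP,HD) cells, with adjusted p of 0.136, 0.0817 and 0.236. In Pax5(DCRD1/-) cells it passed without Pax5(+/+) replicate 1 (adjusted p = 0.0477). A rise of the size seen without Pax5 lies outside each of these intervals. Ordered by the mean, Notch1 was highest in Vav-Cre Pax5(fl/fl), then in Pax5(DCRD1,2/-), and lowest in Pax5(DCRD2/DCRD2) cells at 77.6 and 71.2 TPM. Of the 10 pairs of neighbours in this order, 7 overlapped in their samples, and for Notch2 8 of 10 did.

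Notch3 was scarcely expressed in these cells, with 32 to 250 reads per sample. It was at 1.12, 1.62, 1.00, 0.732 and 1.10 TPM in Pax5(+/+) cells and at 2.19 and 3.08 TPM in Vav-Cre Pax5(fl/fl) progenitors, whose 2 values lie above all others of the set. The difference of 0.99 (standard error 0.35, adjusted p = 0.0326) was lost under 8 alternatives (adjusted p from 0.0513 to 0.197), among them without Pax5(+/+) replicate 1 or 5 and without Vav-Cre Pax5(fl/fl) replicate 2. The level of Notch3 was also higher in Pax5(DHD/DHD) cells, at 1.98 and 1.57 TPM, than in Pax5(DOP/DOP) cells, at 0.450 and 0.663 TPM (difference of DOP minus DHD -1.52, standard error 0.38, adjusted p = 0.0283), and this call was lost under 6 alternatives (adjusted p from 0.0510 to 0.199), among them without any 1 of the 4 samples. The lowest level, 0.294 and 0.400 TPM, was that of Pax5(DCRD1/-) cells, where the difference from Pax5(+/+) of -1.11 did not pass (adjusted p = 0.0672). It passed under 4 alternatives, among them edgeR on the recovered reads (adjusted p from 0.00286 to 0.0198).

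**Figure D1:**
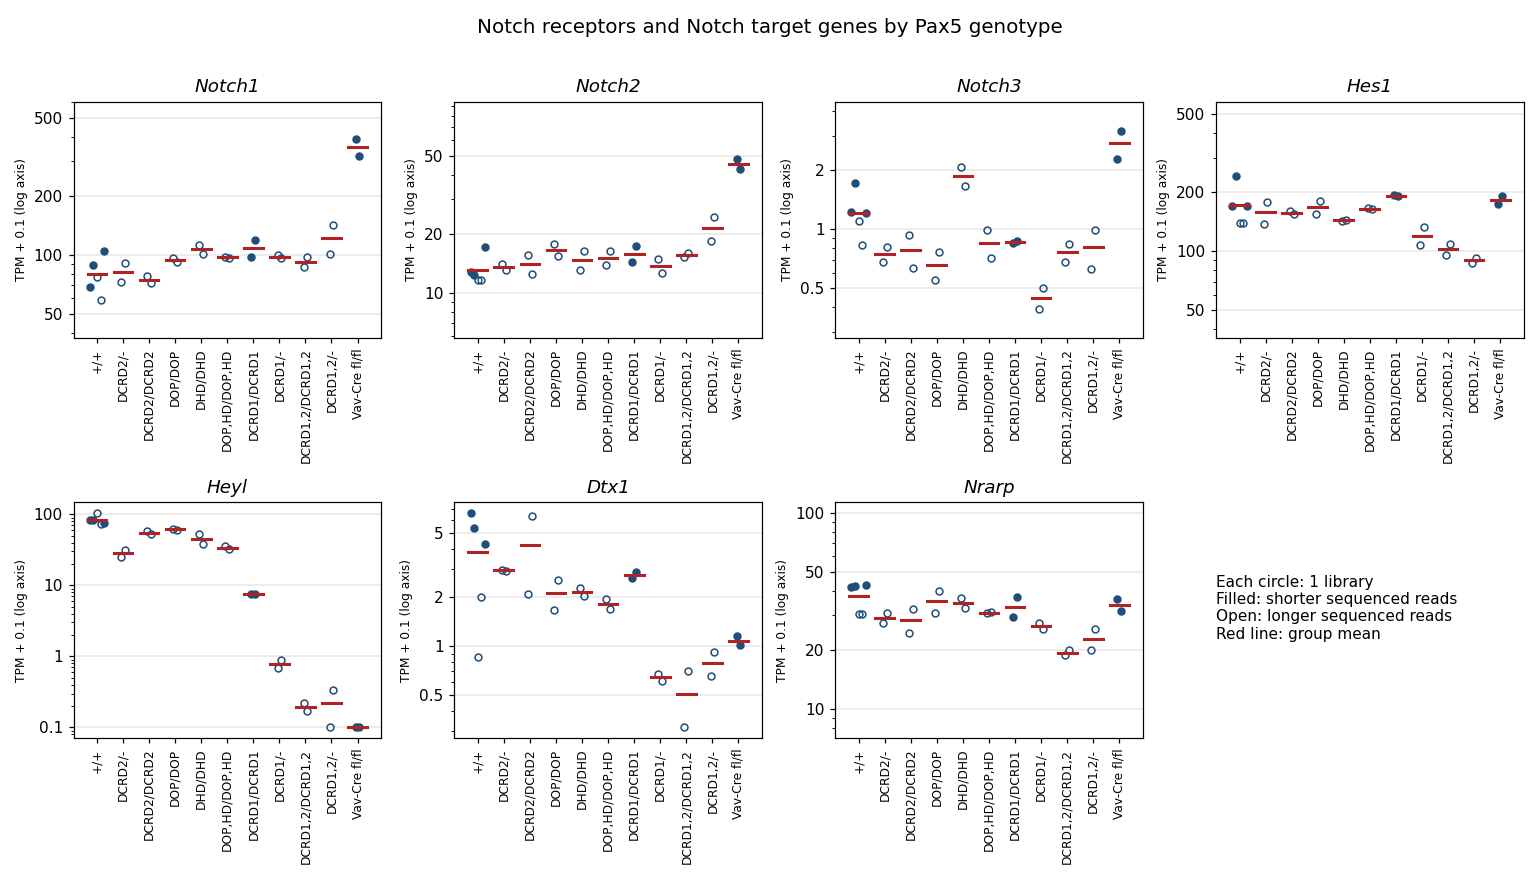
Levels of the 7 genes in pro-B cells and progenitors by Pax5 genotype, as TPM + 0.1 on a log axis, with 1 circle per sample (filled for shorter, open for longer sequenced reads) and a red line at the mean of a group (n = 5 for +/+, n = 2 for each mutant). Notch1 and Notch2 stand apart in Vav-Cre fl/fl progenitors, whereas Heyl has its highest mean, 84.0 TPM, in +/+ and is at 0 in Vav-Cre fl/fl.

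Heyl behaved in the opposite way to Notch1 and Notch2 in progenitors without Pax5 and varied more than any other member. Its level in Pax5(+/+) pro-B cells was 82.2, 83.4, 105, 73.7 and 75.6 TPM, from 3432 to 5930 reads per sample. No read of Heyl was found in either sample of Vav-Cre Pax5(fl/fl) progenitors. Counted against a floor of 3 reads over both samples, it was at least 1464-fold lower there (adjusted p = 7.97e-13 from limma).

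Heyl was lower in cells with CRD1 deleted, and lower still with CRD1 and CRD2 deleted together. Heyl was at 7.50 and 7.42 TPM in Pax5(DCRD1/DCRD1) cells and at 0.587 and 0.792 TPM in Pax5(DCRD1/-) cells. These differences were -3.41 (standard error 0.33, 10.6-fold lower, adjusted p = 2.97e-06) and -6.82 (standard error 0.37, adjusted p = 2.32e-09). From the 85 reads of the Pax5(DCRD1/-) samples, Heyl was 122-fold lower than in Pax5(+/+) cells, with a 95% counting interval of 98.5 to 152. With CRD2 lost as well, 7 and 4 reads were left in Pax5(DCRD1,2/DCRD1,2) cells and 0 and 19 reads in Pax5(DCRD1,2/-) cells. By summed reads these levels were 868-fold (485 to 1738) and 652-fold (417 to 1083) below Pax5(+/+), and such intervals cover counting error only.

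The mutants were also compared with each other. The homozygotes with CRD1 deleted and with both domains deleted differ in read length, and were compared through Pax5(+/+) samples. Between them, Heyl was lower by -5.41 (standard error 0.50, adjusted p = 1.69e-05) with CRD1 and CRD2 deleted than with CRD1 deleted alone. Over the null allele this difference was -2.10 (standard error 0.37, adjusted p = 0.00224), and was lost with log2(TPM + 1) and in the fit of same-length samples (adjusted p = 0.0713 and 0.150). The difference between the 2 effects, -3.31, did not pass (standard error 0.62, adjusted p = 0.0699), although it passed under 5 alternatives (adjusted p from 0.000159 to 0.0347), among them without either Pax5(DCRD1,2/-) sample. Both double mutants were close to 0 reads. From 0.587 and 0.792 TPM in Pax5(DCRD1/-) cells, Heyl could fall less on this scale than from 7.50 and 7.42 TPM in Pax5(DCRD1/DCRD1) cells. Allele dose and this floor cannot be told apart here. With CRD2 alone deleted, Heyl was at 25.2 and 31.2 TPM over the null allele and at 58.8 and 52.0 TPM in homozygotes. All of these lie below the Pax5(+/+) range. Only the hemizygous difference of -1.65 passed (standard error 0.37, 3.14-fold lower, adjusted p = 0.0290), and it was lost under 5 alternatives (adjusted p from 0.0881 to 0.563), among them the fits with quantile normalization, without Pax5(+/+) replicate 3 and without either Pax5(DCRD2/-) sample. Between hemizygotes, CRD1 deletion lowered Heyl 35.9-fold more than CRD2 deletion did (95% confidence interval 21.0 to 61.5, adjusted p = 2.24e-07).

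In cells without the central domains Heyl was at 62.3 and 60.8 TPM in Pax5(DOP/DOP), at 52.2 and 37.6 TPM in Pax5(DHD/DHD) and at 35.4 and 32.0 TPM in Pax5(DOP,HD/DOP,HD) cells. Every one of these 6 values lies below the lowest Pax5(+/+) value of 73.7 TPM. None of the differences, -0.52, -0.99 and -1.38, passed in the fit of all samples (adjusted p = 0.479, 0.289 and 0.0712). That of the double deletion passed under 5 alternatives, among them the fit with Pax5(+/+) samples of the same read length (adjusted p = 0.0381) and edgeR. In the order of means, Heyl fell from Pax5(+/+) over DOP/DOP, DCRD2/DCRD2, DHD/DHD, DOP,HD/DOP,HD, DCRD2/-, DCRD1/DCRD1, DCRD1/-, DCRD1,2/- and DCRD1,2/DCRD1,2 to Vav-Cre fl/fl, and 8 of the 10 pairs of neighbours did not overlap.

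Hes1, the most abundant of the target genes in pro-B cells, changed little. In Pax5(+/+) cells it was at 170, 240 and 170 TPM in the 3 samples with shorter reads and at 139 and 140 TPM in the 2 with longer reads. Vav-Cre Pax5(fl/fl) progenitors, sequenced with shorter reads, had 174 and 192 TPM, which fall inside the Pax5(+/+) range, and the difference was -0.06 with a 95% confidence interval of -0.36 to 0.23 (adjusted p = 0.776). It was lower in Pax5(DCRD1,2/-) cells, at 87.1 and 92.4 TPM, and in Pax5(DCRD1,2/DCRD1,2) cells, at 95.9 and 109 TPM. All 4 values are below the Pax5(+/+) range. The differences were -0.63 (standard error 0.15, adjusted p = 0.00519) and -0.45 (standard error 0.15, adjusted p = 0.0399). Against Pax5(+/+) samples of the same length alone they did not pass (adjusted p = 0.0647 and 0.149), and the second was lost under 9 alternatives in all (adjusted p from 0.0519 to 0.236), among them without Pax5(+/+) replicate 3 or 4 or either mutant sample. Pax5(DCRD1/-) cells had 108 and 132 TPM, also below all Pax5(+/+) samples, and the difference of -0.22 did not pass (adjusted p = 0.418), although it passed in both fits without the read length term (adjusted p = 0.000533 and 0.0369). In the other mutants Hes1 ranged up to 193 TPM.

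Dtx1 was expressed at a low level, with 10 to 341 reads per sample, and differed between Pax5(+/+) samples by read length. It was at 6.58, 5.26 and 4.19 TPM in those with shorter reads and at 0.759 and 1.91 TPM in those with longer reads. The 2 samples of Vav-Cre Pax5(fl/fl), with shorter reads, had 1.05 and 0.914 TPM, which lie below the 3 control samples of that length. With the length as a term the difference was -2.31 (standard error 0.45, 4.97-fold lower, adjusted p = 0.000588), and without that term it missed the threshold (adjusted p = 0.0578). In Pax5(DCRD1,2/DCRD1,2) cells, with longer reads, Dtx1 was at 0.215 and 0.602 TPM, and the difference of -1.48 passed (standard error 0.50, adjusted p = 0.0352) but was lost under 5 alternatives (adjusted p from 0.0630 to 0.324), among them without Pax5(+/+) replicate 4 or Pax5(DCRD1,2/DCRD1,2) replicate 1. Pax5(DCRD1/-) cells had 0.577 and 0.513 TPM and Pax5(DCRD2/-) cells 2.87 and 2.81 TPM. Between these hemizygotes, which were sequenced alike, Dtx1 was 4.57-fold lower with CRD1 deleted (difference -2.19, standard error 0.50, adjusted p = 0.0131), a call lost under 7 alternatives (adjusted p from 0.0591 to 0.0972), among them without any 1 of the 4 samples.

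Nrarp was the steadiest member across genotypes, with a range of 18.7 to 42.7 TPM. It too was higher in the Pax5(+/+) samples with shorter reads (41.8, 42.2 and 42.7 TPM) than in those with longer reads (30.3 and 30.5 TPM). In Pax5(DCRD1,2/DCRD1,2) cells it was at 18.7 and 19.9 TPM, below all Pax5(+/+) samples, with a difference of -0.65 (standard error 0.16, 1.57-fold lower, adjusted p = 0.00588). Pax5(DCRD1,2/-) cells had 19.8 and 25.5 TPM, also below all Pax5(+/+) samples, and a difference of -0.44 that did not pass (adjusted p = 0.0567, and 0.0231 at most under the 3 alternatives where it passed, among them without Pax5(DCRD1,2/-) replicate 2). Vav-Cre Pax5(fl/fl) progenitors, sequenced with shorter reads, had 36.1 and 31.5 TPM. These lie below the 3 Pax5(+/+) samples of that length and above the 2 with longer reads, with a 95% confidence interval of the difference of -0.63 to -0.01 (adjusted p = 0.0972).

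Counted over the 7 members, 5 differed between Vav-Cre Pax5(fl/fl) progenitors and Pax5(+/+) cells, 3 higher and 2 lower, where 37.1% of all 14000 genes tested did (19.6% higher and 17.5% lower). In Pax5(DCRD1,2/-) cells 4 members differed, 2 in each direction, against 25.9% of genes (10.1% higher and 15.8% lower), and in Pax5(DCRD1,2/DCRD1,2) cells 4, all lower, against 26.3% (15.6% lower). Heyl was the 1 member that differed in Pax5(DCRD1/-), Pax5(DCRD1/DCRD1) and Pax5(DCRD2/-) cells, where it was lower and where 12.4%, 9.63% and 1.50% of genes differed, with 6.71%, 5.10% and 0.629% lower. By limma no member differed in Pax5(DCRD2/DCRD2), Pax5(DOP/DOP), Pax5(DHD/DHD) or Pax5(DOP,HD/DOP,HD) cells, where 0.114%, 1.02%, 1.00% and 1.78% of genes did. At an unadjusted p under 0.05 there were 1, 2, 3 and 2 such members, and edgeR on the recovered reads called 0, 0, 0 and 1. The comparisons between mutants named above had backgrounds of 5.23% and 9.78% (progenitors against Pax5(DCRD1,2/-) and Pax5(DCRD1,2/DCRD1,2)), 4.92% and 2.65% (CRD2 loss over the null allele and in homozygotes), 6.04% (CRD1 against CRD2 deletion), 4.49% (DOP against DHD) and 0.0286% (difference between the 2 CRD2 effects). In the last of these, 0 members passed by limma, 1 did at an unadjusted p under 0.05 and 0 passed by edgeR. With the thresholds of the study added, a fold above 3 and a mean above 5 TPM in 1 group, Notch1, Notch2 and Heyl remained in Vav-Cre Pax5(fl/fl), where 7.42% of genes passed. Heyl alone remained in Pax5(DCRD1,2/-), where 4.39% did. Values wholly above or below all Pax5(+/+) samples were common among all genes. Their share was 41.4% in Vav-Cre Pax5(fl/fl), 41.3% in Pax5(DCRD1,2/-), 45.4% in Pax5(DCRD1,2/DCRD1,2) and 33.7% in Pax5(DCRD1/-) cells. It was 22.7% in Pax5(DCRD1/DCRD1), 12.5% in Pax5(DCRD2/-), 9.2% in Pax5(DCRD2/DCRD2), 22.5% in Pax5(DOP/DOP), 17.4% in Pax5(DHD/DHD) and 19% in Pax5(DOP,HD/DOP,HD) cells. Markers of other cells moved with the progenitor samples. Genes of plasmacytoid dendritic cells rose in 4 of 5, with a summed level of 593 to 917 TPM against 139 to 237 TPM in Pax5(+/+) cells. T cell markers rose in 4 of the 7 tested of 9, summed to 483 to 486 TPM against 152 to 183 TPM, with Cd3e at no more than 0.178 TPM. B cell markers fell in 7 of 8, with a sum of 5049 to 5753 TPM against 14541 to 18580 TPM. Of the myeloid markers 2 of 12 rose, with sums that overlapped, and of the 4 erythroid markers tested 1 rose and 1 fell. The part of such cells in the levels of Notch1 and Notch2 was not tested.

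The Prd experiment compared progenitors with pro-B cells that carry 1 functional Pax5 allele, and asked what the paired domain alone can do, with the alternative gating in the progenitors only. Here Notch1 and Notch2 were again higher and Heyl was again nearly absent in progenitors of both genotypes. Notch1 was at 114 and 126 TPM in Vav-Cre Pax5(fl/+) pro-B cells, at 246 and 278 TPM in Vav-Cre Pax5(Prd/fl) and at 328 and 352 TPM in Vav-Cre Pax5(fl/fl) progenitors. The 3 groups did not overlap. Of all 12941 genes, 73% with Prd/fl and 77.4% with fl/fl did not overlap the pro-B cells. It was 2.83-fold higher in Vav-Cre Pax5(fl/fl) (95% confidence interval 2.41 to 3.31, adjusted p = 0.000107) and 2.18-fold higher in Vav-Cre Pax5(Prd/fl) progenitors (1.86 to 2.55, adjusted p = 0.000298) than in the pro-B cells. Both comparisons share the pro-B samples. Between the progenitors the difference of Prd/fl minus fl/fl was -0.38 (95% confidence interval -0.61 to -0.15), and did not pass over all genes (adjusted p = 0.115). Without Vav-Cre Pax5(Prd/fl) replicate 2 it passed (adjusted p = 0.0408).

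Notch2 was at 13.1 and 14.4 TPM in the pro-B cells, at 32.7 and 37.7 TPM in Vav-Cre Pax5(Prd/fl) and at 34.9 and 37.2 TPM in Vav-Cre Pax5(fl/fl) progenitors. Both progenitors lay above the pro-B cells (2.55-fold, adjusted p = 0.000283, and 2.61-fold, adjusted p = 0.000273) and overlapped each other, with a 95% confidence interval of their log2 difference of -0.31 to 0.23. Notch3 was at 1.18 and 1.18 TPM in pro-B cells, 1.42 and 1.55 TPM with Prd/fl and 1.32 and 1.03 TPM with fl/fl, and no difference passed (adjusted p of 0.440 and 0.978 against pro-B cells).

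The target genes were lower with the paired domain alone than in the pro-B cells. Heyl was at 59.5 and 50.2 TPM in Vav-Cre Pax5(fl/+) pro-B cells, and 8 and 0 reads were left in Vav-Cre Pax5(Prd/fl) and 0 and 2 reads in Vav-Cre Pax5(fl/fl) progenitors. By summed reads these levels were 931-fold (95% counting interval 472 to 2156) and 4571-fold (1265 to 37743) lower, with adjusted p of 7.61e-05 and 6.84e-05. Dtx1 was at 4.58 and 2.77 TPM in pro-B cells, 0.757 and 1.34 TPM with Prd/fl and 0.449 and 0.756 TPM with fl/fl. It was 3.30-fold lower with Prd/fl (adjusted p = 0.0204) and 5.35-fold lower with fl/fl (adjusted p = 0.00577). The first call was lost without either pro-B sample or Prd/fl replicate 1 (adjusted p from 0.0532 to 0.139), and the second without pro-B replicate 1 (adjusted p = 0.0548).

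Hes1 was at 221 and 213 TPM in the pro-B cells, 123 and 164 TPM with Prd/fl and 173 and 158 TPM with fl/fl, with both progenitor groups below the pro-B cells. The Prd/fl difference of -0.61 passed (standard error 0.14, adjusted p = 0.0135) and that of fl/fl, -0.39, did not (adjusted p = 0.0629). Nrarp was at 46.4 and 51.0 TPM in pro-B cells, 27.9 and 36.2 TPM with Prd/fl and 43.5 and 50.1 TPM with fl/fl, where the last group overlaps the pro-B cells. The difference of -0.61 with Prd/fl passed (standard error 0.15, adjusted p = 0.0169), and the direct difference between both progenitors, -0.55 (95% confidence interval -0.91 to -0.20), did not (adjusted p = 0.127). The Prd/fl calls for Hes1 (adjusted p from 0.0857 to 0.0926) and Nrarp (0.0712 to 0.132) were lost without either pro-B sample, and without Prd/fl replicate 2 the difference between both progenitors passed for Hes1 (0.0386) and Nrarp (0.0323). In all, 6 of 7 members differed with Prd/fl, 2 higher and 4 lower, where 40.7% of 12941 genes did (24.1% higher and 16.6% lower). With fl/fl 4 of 7 differed, 2 in each direction, where 39.9% did (20.8% higher and 19.1% lower). Between both progenitors no member passed by limma, 2 did at an unadjusted p under 0.05, 0 passed by edgeR, and 1.97% of genes passed by limma. Of the plasmacytoid dendritic cell markers 5 of 5 rose in both progenitors, with a summed level of 332 to 390 TPM with Prd/fl and 330 to 404 TPM with fl/fl against 177 to 179 TPM in pro-B cells. Myeloid markers rose in 4 of 11 with Prd/fl and in 6 of 11 with fl/fl, where 1 fell, with sums of 315 to 346 TPM and 310 to 499 TPM against 129 to 159 TPM. T cell markers rose in 2 of the 4 tested of 9 in both, with sums of 509 to 593 TPM and 480 to 490 TPM against 270 to 342 TPM and Cd3e at no more than 0.166 TPM. Of the 4 erythroid markers tested 1 rose in each, with sums of 622 to 702 TPM and 586 to 614 TPM against 243 to 248 TPM. Markers of NK and innate cells summed to 27.8 to 44.6 TPM and 33.2 to 42.4 TPM against 14.6 to 17.4 TPM. B cell markers fell in 7 of 8 in both, with sums of 7279 to 7799 TPM and 5535 to 5878 TPM against 14476 to 14630 TPM. The part of these markers in the results was not tested.

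**Figure D2:**
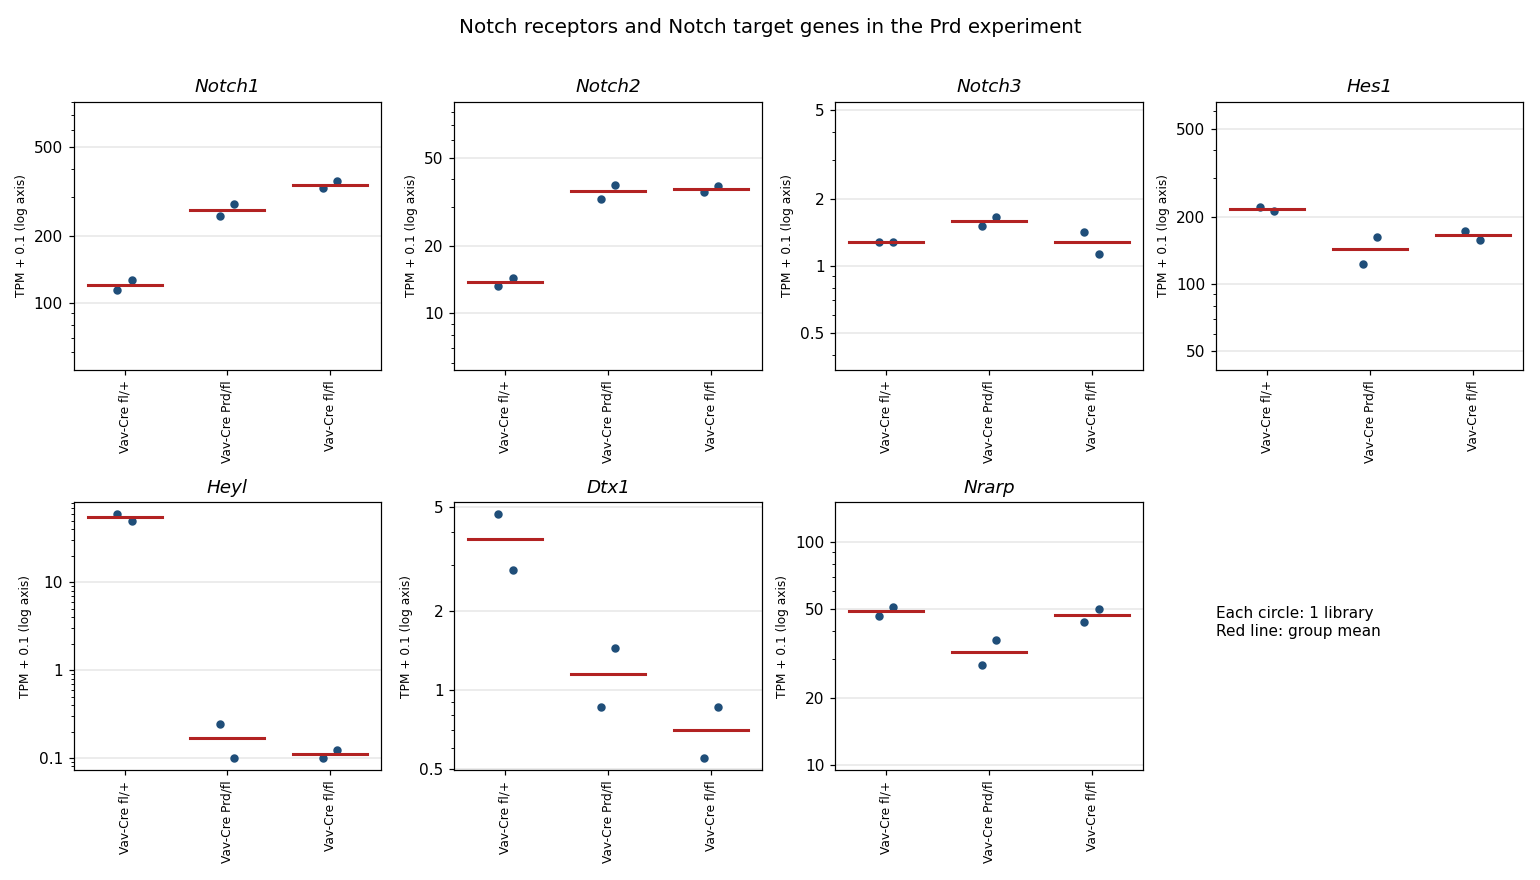
Levels of the 7 genes in the Prd experiment, as TPM + 0.1 on a log axis, with 1 circle per sample and a red line at the mean of 2 samples. Both progenitor genotypes lie above Vav-Cre fl/+ pro-B cells for Notch1 and Notch2 and below them for Hes1, Heyl and Dtx1.

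**Figure D3:**
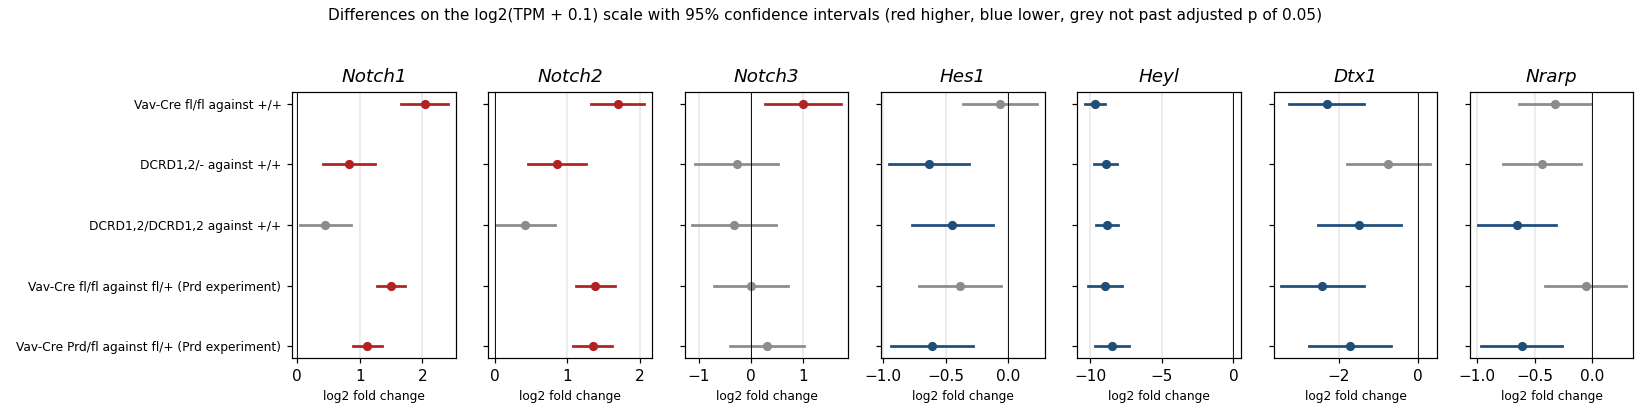
Differences from pro-B cells on the log2(TPM + 0.1) scale (points) with 95% confidence intervals (lines) for the 7 genes in 5 comparisons, in red where higher, in blue where lower and in grey where the adjusted p missed 0.05. The first row rests on the 3 +/+ samples with shorter reads, and rows 2 and 3 share the 2 with longer reads. The last 2 rows share the Vav-Cre fl/+ samples. Notch1 and Notch2 lie to the right of 0 in all 5 rows, while Heyl lies below -8.

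From LMPP to DN3b the receptors followed separate courses. The values of this data set were made with another aligner and genome build than the Pax5 samples and were normalized separately, so that levels are compared only within it. The share of all genes whose samples did not overlap between stages was not counted. In the Prd experiment, with 2 samples a group, that share was 73% and 77.4% against the pro-B cells. Notch1 was at 144 and 187 TPM in LMPP, at 638, 602 and 494 TPM in DN1, at 379, 260 and 472 TPM in DN2a and at 481, 377 and 324 TPM in DN2b. It then reached 1213 and 1216 TPM in DN3a and was at 466 and 531 TPM in DN3b. It rose 3.50-fold from LMPP to DN1 (95% confidence interval 2.52 to 4.87, adjusted p = 4.54e-05) and 3.12-fold from DN2b to DN3a (2.24 to 4.35, adjusted p = 6.10e-05). It fell 1.60-fold from DN1 to DN2a (adjusted p = 0.0190, lost without DN1 replicate 1 or 2a or DN2a replicate 1b, with adjusted p from 0.0575 to 0.0924) and 2.44-fold from DN3a to DN3b (adjusted p = 0.000531). Between DN2a and DN2b the groups overlapped.

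Notch3 was the receptor that rose at every step up to DN3a. It was at 1.27 and 1.23 TPM in LMPP, at 6.65, 6.89 and 7.24 TPM in DN1 and at 31.7, 22.3 and 32.5 TPM in DN2a. In DN2b it was at 82.0, 68.7 and 69.8 TPM, in DN3a at 626 and 714 TPM and in DN3b at 73.6 and 81.7 TPM. No 2 successive stages overlapped, which was not counted over all genes. The 4 rises were 5.20-fold, 4.07-fold, 2.57-fold and 9.12-fold (adjusted p = 8.31e-08, 2.25e-07, 8.48e-06 and 8.85e-09), and the fall into DN3b was 8.62-fold (95% confidence interval 6.74 to 11.0, adjusted p = 8.51e-09).

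Notch2 went the other way. It was at 83.0 and 121 TPM in LMPP and at 108, 88.0 and 83.3 TPM in DN1, which overlap, and at 35.9, 27.1 and 53.4 TPM in DN2a. The step from DN1 to DN2a was a 2.48-fold fall (adjusted p = 0.00110). Later values were 40.7, 26.4 and 23.7 TPM in DN2b, 30.9 and 32.0 TPM in DN3a and 22.9 and 22.2 TPM in DN3b, and no later step passed the test.

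Dtx1 showed the largest change of any member at 3 of the 5 steps, into DN1, DN2b and DN3a, although at the step into DN2b Notch3 changed nearly as much in the other direction. It was at 0.333 and 0.390 TPM in LMPP, at 25.2, 21.0 and 24.9 TPM in DN1, at 16.5, 12.6 and 17.1 TPM in DN2a and at 5.39, 5.46 and 6.65 TPM in DN2b. In DN3a it was at 392 and 491 TPM and in DN3b at 84.1 and 139 TPM. No stage overlapped its neighbour, which was not counted over all genes. It rose 51.5-fold into DN1 (95% confidence interval 37.9 to 70.0, adjusted p = 5.06e-10) and 74.3-fold into DN3a (54.6 to 101, adjusted p = 2.36e-10). In between it fell, 1.54-fold from DN1 to DN2a (adjusted p = 0.0197, lost with quantile normalization and without DN1 replicate 1 or 2b or DN2a replicate 1b, with adjusted p from 0.0588 to 0.125) and 2.60-fold from DN2a to DN2b (adjusted p = 0.000115). From DN3a to DN3b it fell 4.05-fold (adjusted p = 6.25e-06).

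Hes1 was at 19.0 and 2.23 TPM in LMPP, which lie far apart. It was at 228, 224 and 253 TPM in DN1, at 183, 167 and 186 TPM in DN2a and at 191, 186 and 187 TPM in DN2b. The rise into DN1 was 35.2-fold, with a wide 95% confidence interval of 15.5 to 80.0 (adjusted p = 1.28e-05). DN3a cells had 562 and 421 TPM, above all DN2b samples, but the rise of 1.37 (standard error 0.55) did not pass (adjusted p = 0.0562). It passed with log2(TPM + 1) and with the lower row of each gene (adjusted p = 0.0333 and 0.0460). The fall to 59.3 and 85.4 TPM in DN3b was 6.83-fold (adjusted p = 0.00153).

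Heyl was low through these stages. It is listed at 0 in both LMPP samples, and so no fold is given for the step to DN1, where it was at 0.158, 0.276 and 0.131 TPM. That rise passed the test (adjusted p = 0.0133), was lost under 5 alternatives (adjusted p from 0.0537 to 0.443), among them without either LMPP sample or DN1 replicate 2a, and turned into a fall where entries of exactly 1 were kept as values. It was at 0.598, 0.753 and 0.341 TPM in DN2a, at 0.595, 0.388 and 0.952 TPM in DN2b, at 3.71 and 5.74 TPM in DN3a and at 2.03 and 3.22 TPM in DN3b. The rise into DN3a was 6.64-fold (adjusted p = 8.51e-05), and the step to DN3b passed only with log2(TPM + 1) (adjusted p = 0.113, and 0.0194 there). That into DN2a was 2.27-fold (adjusted p = 0.0181) and was lost under 5 alternatives (adjusted p from 0.0598 to 0.0988), among them without DN1 replicate 1 or 2b or DN2a replicate 1a or 1b. Nrarp, by contrast, was highest early. It rose from 7.22 and 13.9 TPM in LMPP to 81.1, 83.4 and 77.1 TPM in DN1 (7.96-fold, adjusted p = 1.41e-06), and fell to 46.5, 32.3 and 53.1 TPM in DN2a (1.87-fold, adjusted p = 0.00837). In DN2b it was at 31.6, 29.5 and 23.2 TPM, below all DN2a samples. That difference of -0.62 did not pass (adjusted p = 0.0725) but did so with quantile normalization, with the replicate block and without DN2a replicate 1b (adjusted p from 0.0204 to 0.0438). In DN3a it was at 13.9 and 17.8 TPM, a fall of 1.77-fold (adjusted p = 0.0170, and 0.151 without DN3a replicate 1), at the step where Notch1, Notch3, Heyl and Dtx1 rose. In DN3b it was at 23.0 and 24.1 TPM, above both DN3a samples, with a difference of 0.58 that did not pass (adjusted p = 0.0929) except with quantile normalization (1.01, adjusted p = 0.00475).

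DN3a cells without Rag2, which cannot rearrange their T cell receptor genes, had more of several members than wild-type DN3a cells. Dtx1 was at 1443 and 1240 TPM (3.05-fold higher, adjusted p = 0.000322), Heyl at 21.8 TPM in both samples (4.65-fold, adjusted p = 0.00207) and Notch3 at 956 and 1003 TPM (1.46-fold, adjusted p = 0.0258). Nrarp was at 25.9 and 30.1 TPM (1.77-fold, adjusted p = 0.0414). None of these pairs overlapped wild-type DN3a, and the share of all genes for which this held was not counted. The Notch3 and Nrarp calls were lost without any 1 of the 4 samples (adjusted p from 0.0572 to 0.161 for Notch3, and from 0.0521 to 0.236 for Nrarp over the 7 alternatives where it was lost). Notch1, at 1467 and 1308 TPM, and Hes1, at 613 and 687 TPM, were also above wild-type DN3a cells without passing (adjusted p = 0.608 and 0.658), and Notch2, at 30.1 and 32.1 TPM, overlapped them.

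**Figure D4:**
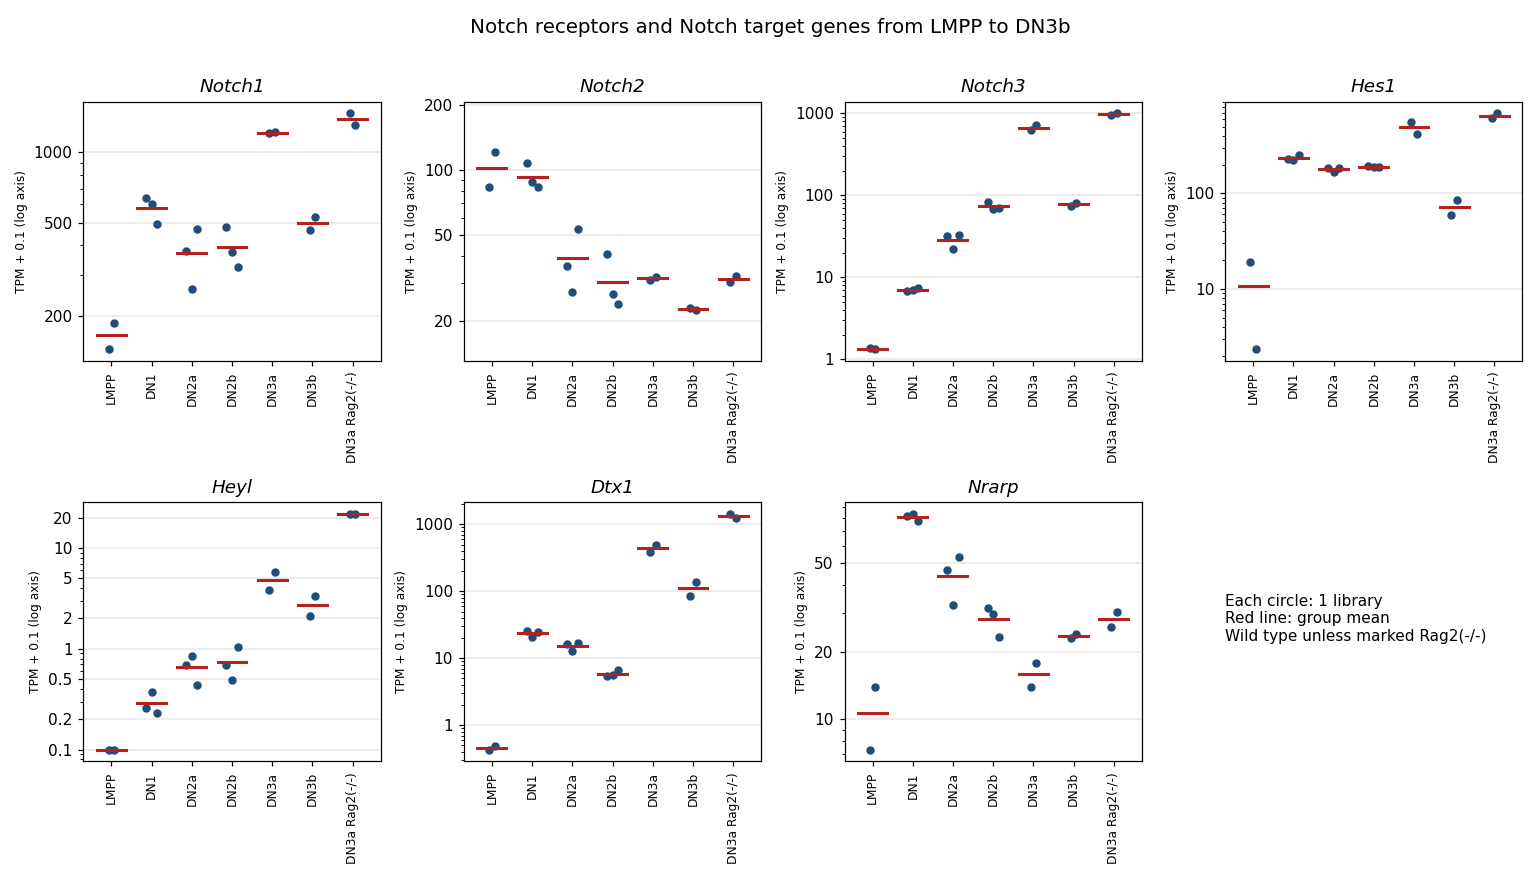
Levels of the 7 genes in LMPP, the thymic stages DN1 to DN3b and Rag2(-/-) DN3a cells, as TPM + 0.1 on a log axis, with 1 circle per sample and a red line at the mean (n = 2 or 3). Notch3 and Dtx1 reach their wild-type maximum in DN3a, whereas Notch2 falls after DN1 and Nrarp is highest in DN1.

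Over the steps, 6 of 7 members rose from LMPP to DN1, where 18.6% of 13482 genes differed and 6.73% rose. From DN1 to DN2a 6 of 7 differed (33.7% of genes), 2 higher (10.9%) and 4 lower (22.9%). From DN2a to DN2b Notch3 rose and Dtx1 fell, against a background of 18.2% (9.80% higher and 8.43% lower). From DN2b to DN3a 4 rose and Nrarp fell (45.8% of genes, 31.4% higher and 14.4% lower), and from DN3a to DN3b Notch1, Notch3, Hes1 and Dtx1 fell (53.4% of genes, 39.2% lower). In Rag2(-/-) cells 4 of 7 were higher (26.4% of genes, 6.91% higher). The median of all genes itself moved by -0.18 from DN1 to DN2a, by 0.27 from DN2b to DN3a, by -0.41 from DN3a to DN3b and by -0.18 in Rag2(-/-) against wild-type DN3a cells. Relative to it, Notch1 changed by -0.50, 1.37 and -0.88 at the 3 steps, Notch3 by 2.20, 2.92 and -2.70 and Dtx1 by -0.45, 5.94 and -1.61. Nrarp changed by -0.73, -1.09 and 0.99, Hes1 by -2.37 at the last, and Heyl by 1.36 and 2.46 at the first 2. Of the calls over all genes, 26.5% were higher from DN3a to DN3b and 68.5% from DN2b to DN3a, and with quantile normalization 50.4% and 50.8%. At the steps into DN1 and DN2a and in Rag2(-/-) cells these shares were 36.2%, 32.2% and 26.2% against 51.1%, 51.3% and 49.97%. No called member changed direction with that normalization. Marker sums moved as well. Myeloid markers summed to 2574 to 2694 TPM in LMPP, 1986 to 2256 TPM in DN1 and 540 to 562 TPM in DN2a. Erythroid markers summed to 663 to 683, 298 to 307 and 46.7 to 53.1 TPM at these stages. T cell markers rose from 632 to 766 TPM in DN1 to 1651 to 1710 TPM in DN2a. Sums of B cell, plasmacytoid dendritic, and NK and innate cell markers overlapped between DN1 and DN2a. The part of such cells was not tested.

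Beyond the members, 64 other genes of the pathway were examined, of which 52 were tested in the Pax5 samples. They cover ligands, receptor processing and glycosylation, the nuclear complex, ubiquitin ligases and endocytosis, Hes and Hey relatives, Groucho corepressors and genes that Notch induces in T cells. In Vav-Cre Pax5(fl/fl) progenitors 19 of 52 differed from Pax5(+/+) cells, 10 higher and 9 lower, a share of 36.5% against 37.1% of all genes. In Pax5(DCRD1,2/-) cells 14 of 52 did, 4 higher and 10 lower, or 26.9% against 25.9% of all genes. In the Prd experiment 24 of 52 differed with Prd/fl (46.2% against 40.7%) and 17 of 52 with fl/fl (32.7% against 39.9%).

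Dtx4, a second Deltex ubiquitin ligase, moved opposite to Dtx1. It was between 1.88 and 3.50 TPM in Pax5(+/+) cells and between 88.1 and 98.04 TPM in Vav-Cre Pax5(fl/fl) progenitors, a rise of 5.33 (standard error 0.21, adjusted p = 2.52e-12). The partial deletions lay in between, at 37.2 to 46.5 TPM in Pax5(DCRD1,2/-), 26.7 to 31.1 TPM in Pax5(DCRD1,2/DCRD1,2), 16.4 to 19.98 TPM in Pax5(DCRD1/-) and 12.3 to 14.03 TPM in Pax5(DCRD1/DCRD1) cells, each higher than Pax5(+/+) (differences of 3.76, 3.23, 2.56 and 2.51). In the Prd experiment it was between 4.27 and 4.32 TPM in pro-B cells, 84.2 to 98.02 TPM with Prd/fl and 57.4 to 63.7 TPM with fl/fl. Of the genes that Notch induces in T cells, 5 of the 5 others tested differed in Vav-Cre Pax5(fl/fl) cells, 4 higher and 1 lower. Of all genes, 37.1% differed there (19.6% higher and 17.5% lower). The paper names Il2ra as a target that Pax5 represses, and the part of Notch in these levels was not tested. Il2ra, the alpha chain of the IL-2 receptor, rose by 2.44, Tcf7, a T cell transcription factor, by 1.43, Myc by 1.47 and Gata3, which stayed at 2.36 to 2.54 TPM, by 2.86, whereas the growth factor receptor gene Igf1r fell by 1.53. In Pax5(DCRD1,2/-) cells Il2ra rose by 4.65, Myc by 1.43 and Tcf7 by 1.04, Igf1r fell by 1.49 (adjusted p = 3.16e-06), and Gata3, at 0.234 to 0.278 TPM, did not pass (adjusted p = 0.445). Of all genes, 25.9% differed in Pax5(DCRD1,2/-) cells. Ptcra, the pre-T cell receptor alpha gene, was at no more than 0.407 TPM in any of the 31 Pax5 samples.

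Of the signalling machinery, 1 of 10 processing genes was lower in Vav-Cre Pax5(fl/fl) progenitors, 2 of 9 genes of the nuclear complex were called, 1 in each direction, and 5 of 13 other genes of ubiquitin ligases and endocytosis were, 3 higher and 2 lower, where 37.1% of all genes were called. Psen2, a catalytic subunit of the gamma-secretase that frees the receptor, was between 80.4 and 125 TPM in Pax5(+/+) cells and between 45.6 and 51.4 TPM in Vav-Cre Pax5(fl/fl) progenitors (difference -1.07, adjusted p = 2.36e-05). Maml1, a Mastermind coactivator, was between 65.6 and 82.2 TPM against 41.2 to 47.7 TPM (-0.85, adjusted p = 4.83e-05). Both also fell in Pax5(DCRD1,2/-) cells (-1.01 and -1.23) and in both progenitors of the Prd experiment (Psen2 by -0.99 with fl/fl and -0.77 with Prd/fl, Maml1 by -0.78 and -0.65). Rbpj itself was between 3.45 and 8.27 TPM in Pax5(+/+) cells and between 7.65 and 10.7 TPM in the progenitors, and its difference of 0.33 did not pass (adjusted p = 0.243). Of the ligand genes only Jag2 passed the filter, and it was higher in Vav-Cre Pax5(fl/fl) progenitors (0.77, adjusted p = 0.0155). None of the 5 glycosyltransferase genes differed there, Lfng being between 171 and 189 TPM against 156 to 219 TPM.

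In the thymic stages 54 of the 64 other genes were tested. From DN2b to DN3a 24 of them differed, 22 higher and 2 lower, and from DN3a to DN3b 31 did, 1 higher and 30 lower. These shares of 44.4% and 57.4% are near the 45.8% and 53.4% of all genes, beside the movement of the median gene in the same directions. From DN1 to DN2a 28 differed, 3 higher and 25 lower. That share of 51.9% is above the 33.7% of all genes, of which 22.9% were lower. At the steps into DN1 and DN2b the shares were 20.4% and 16.7% against 18.6% and 18.2% of all genes. Rbpj rose from 6.99 to 11.4 TPM in DN2b to 16.7 to 17.2 TPM in DN3a (0.93, adjusted p = 0.00290) and fell to 7.69 to 8.26 TPM in DN3b (-1.08, adjusted p = 0.00136). Ptcra rose by 6.72 into DN3a, and Fbxw7, which targets the freed receptor for destruction, by 1.74. Falls into DN3b included Lfng, which modifies Notch1 with sugars (-2.32, adjusted p = 8.42e-08), the gamma-secretase genes Aph1b (-3.32) and Aph1c (-3.21) and Dtx4 (-2.62). Il2ra fell by 2.72 there and rose by 5.17 from LMPP to DN1. Its product CD25 was used to sort the thymic stages, as negative in DN1 and as high in both DN3a and DN3b. The part of the gate in the levels of Il2ra was not tested. From LMPP to DN1, Tcf7 rose by 7.41 (adjusted p = 3.12e-10) and Gata3 by 3.02 (adjusted p = 7.88e-07).

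The genes whose log2 levels ran most parallel to each member were named by Pearson correlation, as a description without a test, since samples share genotype, depth and read length. Over the 25 pro-B samples, Notch1 was closest to Cux1 (r = 0.947), Nbeal2 (r = 0.946) and Notch2 (r = 0.940), and Notch2 to Cd163l1 (r = 0.947), Ern1 (r = 0.943) and Notch1. Heyl was closest to Gpam, Slit1 and Cdkn2d (r = 0.985 for each), and Hes1 to Zswim8 (r = 0.956), Dennd4b (r = 0.940) and Pbx2 (r = 0.937). Nrarp was closest to the Groucho gene Tle3 (r = 0.934), Tnrc18 and Bptf (r = 0.919 for both), Notch3 to Ctif (r = 0.920), Btbd3 (r = 0.862) and Itga3 (r = 0.861), and Dtx1 to Lmo4 (r = 0.903), Fam129c (r = 0.893) and Ms4a1 (r = 0.890). Among the members themselves, Hes1 and Nrarp had r = 0.783 and Dtx1 and Nrarp r = 0.759, while Notch1 had r = -0.619 with Heyl and r = -0.283 with Dtx1. Over the 17 lymphoid samples Notch1 and Dtx1 ran together instead (r = 0.935), as did Notch3 and Heyl (r = 0.939), whereas Notch2 had r = -0.756 with Notch3. There Notch1 was closest to Tle3 (r = 0.971), Osbpl11 (r = 0.950) and Spata13 (r = 0.945), Notch2 to Snx29 (r = 0.982), Mcur1 and Arrb1 (r = 0.978 for both), and Notch3 to H19 (r = 0.989), Nebl and Spib (r = 0.983 for both). Hes1 was closest to Capn3 (r = 0.937), Rasl11b (r = 0.936) and Cysltr1 (r = 0.933), Heyl to Wscd1 (r = 0.961), Hsdl1 (r = 0.960) and Rras2 (r = 0.957), Dtx1 to Nsg2 (r = 0.965), Slc31a1 (r = 0.947) and Xrcc6 (r = 0.944), and Nrarp to Marcksl1 (r = 0.877), Serpina12 (r = 0.875) and Chst2 (r = 0.867).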

How the data were processed

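RNA of sorted cells was sequenced, and 1 file per sample was used. For the 31 Pax5 samples the authors aligned reads trimmed to a common length to GRCm38 (mm10) with STAR 2.4.2a and counted them per gene with Rsubread. They deposited TPM, and in 8 files without gene names also raw read counts, whose rows were matched to the named files by order. That order was checked on 14405 genes, for 100% of which the gene lengths implied by count and TPM were equal within 1%, against 1.38% with rows shifted by 1. The lymphoid files, of 17 samples, were made by the authors with TopHat 1.4.1 on mm9. The deposited values are TPM with 2 rows per gene, treated as a score because a column sums to more than TPM can. The mean of both rows was taken, and an entry of exactly 1 was read as 0. What differs between the 2 rows is not given in the sources used here. The processing notes of the submitters also name Bowtie 1.0.0 and SAMtools 1.9, and the depth of the lymphoid samples is unknown.

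Whole reads were recovered from TPM and implied gene lengths, and 100% of the values tested were whole within 0.01 read. Values were tested as log2(TPM + 0.1) with limma 3.58.1 (R 4.3.3), with a trend in the variance, in 3 fits over all genes above 1 TPM in at least 1 sample. The pro-B fit had genotype and sequenced read length as terms. Tests are two-sided, p-values were adjusted by Benjamini-Hochberg over all genes tested, and the threshold was 0.05. A fold change on this scale understates the change of low genes. The thresholds of the study (fold above 3, or above 2 in the Prd experiment, and a mean above 5 TPM in 1 group) were applied beside it. Tables and figures were made with Python 3.11.15, pandas 2.3.3, SciPy 1.17.1 and matplotlib 3.10.9. The fits were tested on simulated data with 200 changed genes. Groups come from the labels, which repeat replicate numbers within DN1, DN2a and DN2b, so that letters were added. Alternatives were other pseudocounts, no filter, quantile normalization, no variance trend, each sample left out, a replicate block, no read length term, same-length controls, edgeR 4.0.16 on the recovered reads, and other readings of the lymphoid rows. The members and gene lists were chosen with earlier results of these data known. Named beside the members are, per list and comparison, genes with the largest differences among those called and the 3 genes most like each member, and other list genes, such as Rbpj and Lfng, were chosen after their values were seen. The level of 1 marker gene is not reported here.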

Additional observations from a re-analysis of the deposited data

Results flagged for a closer look

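Notch2 in Pax5(+/+) pro-B cells was singled out because 1 of the 5 samples lay far from the others. Replicate 5 had 17.1 TPM against 11.6 to 12.7 TPM in the other 4, and the gap to the nearest sample was 0.795 of the whole range. Each of the 7 members was examined in this way in the Pax5(+/+) group, the only one with more than 3 samples, and chance alone singles out about 1 in 20 groups. Without this sample Notch2 remained higher in Vav-Cre Pax5(fl/fl) and Pax5(DCRD1,2/-) cells. For Pax5(DCRD1,2/-) cells this is no check of the sample. Replicate 5 has shorter reads, and that difference rests on the Pax5(+/+) samples with longer reads. Leaving it out changes only the estimated spread there. The difference between the 2 CRD2 effects was examined for all 7 members as well, and none passed.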

How the results depend on the processing

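Depth limits Notch3 and Dtx1 in the Pax5 samples, and 2 samples per mutant limit every comparison. Of the values recomputed under an alternative, 2721 kept their direction and their side of the threshold, 67 newly passed it, 89 no longer passed it and 5 reversed. Where the value shows no cause, the cause was not tested.

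The counts of members called moved as follows when single samples were left out: 2 to 4 for Pax5(DCRD1,2/DCRD1,2), 1 to 2 for Pax5(DCRD1/-) and 0 to 1 for Pax5(DCRD2/-) against Pax5(+/+), 0 to 2 for Vav-Cre Pax5(fl/fl) against Pax5(DCRD1,2/-), 1 to 2 for CRD2 loss over the null allele, 1 to 2 for CRD1 against CRD2 deletion, 0 to 1 for DOP against DHD, 0 to 1 for the difference between the CRD2 effects, 3 to 6 for Prd/fl against fl/+ (3 without either fl/+ sample), 0 to 3 for Prd/fl against fl/fl, 3 to 6 for DN2a against DN1 and 2 for Rag2(-/-) DN3a without any 1 sample. With same-length controls, 1 member was called for Pax5(DCRD1,2/-), 2 for Pax5(DCRD1,2/DCRD1,2), 1 for Pax5(DOP,HD/DOP,HD), 0 for Vav-Cre Pax5(fl/fl) against Pax5(DCRD1,2/-), 0 for CRD2 loss over the null allele, 1 for CRD1 against CRD2 deletion and 0 for DOP against DHD. Without the read length term the counts were 4 for Pax5(DCRD1/-), 1 for Pax5(DOP,HD/DOP,HD), 5 for the progenitors against each CRD1,2 mutant, 4 for CRD2 loss in homozygotes, 1 for CRD1 against CRD2 deletion and 1 for the difference between the CRD2 effects. With log2(TPM + 1) they were 1 for Pax5(DHD/DHD), 1 for Pax5(DOP,HD/DOP,HD), 0 for CRD2 loss over the null allele and 1 for the difference between effects, and with log2(TPM + 0.01) 0 for Pax5(DCRD2/-). With no filter they were 2 for Pax5(DCRD1,2/DCRD1,2) and 0 for DOP against DHD, and without the variance trend 2 for Pax5(DCRD1/-). With quantile normalization they were 0 for Pax5(DCRD2/-) and 1 for CRD1 against CRD2 deletion. By edgeR they were 2 for Pax5(DCRD1/-), 1 for Pax5(DOP,HD/DOP,HD) and 2 for CRD2 loss over the null allele.

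Replicate numbers do not pair the samples: same-numbered samples had correlations of their deviations from the group means of -0.276 to 0.171 in the pro-B data, -0.111 to 0.0401 in the Prd experiment and -0.288 to 0.177 in the lymphoid data. With the number as a replicate block, which in the pro-B fit could be fitted only without the read length term, the counts were 5 for Pax5(DCRD1/-), 2 for Pax5(DCRD2/-), 1 for Pax5(DCRD2/DCRD2), 2 for Pax5(DOP/DOP), 2 for Pax5(DHD/DHD), 2 for Pax5(DOP,HD/DOP,HD), 5 for the progenitors against each CRD1,2 mutant, 4 for CRD2 loss in homozygotes and 1 for the difference between effects. In that fit Dtx1 turned to -1.53 in Pax5(DOP/DOP), -1.47 in Pax5(DHD/DHD) and -1.72 in Pax5(DOP,HD/DOP,HD), and Hes1 to -0.49 in Pax5(DHD/DHD). Heyl from LMPP to DN1 turned to -1.96 where entries of exactly 1 were kept as values, since LMPP then holds 1 in place of 0.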
